A study of Mus musculus with 2 samples.

Results

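Idi1, Fdps, Fdft1, Hmgcs1, Sqle, Cyp51, Insig1 and Scd2 are 8 genes of the sterol pathway and of its control, taken by symbol from the 32285 gene rows of 2 single-cell RNA libraries. All 8 had UMIs (unique molecular identifiers, each a counted RNA molecule) in both libraries, from 475 UMIs of Sqle to 5708 of Fdps in the liver-labelled library and from 343 of Sqle to 3324 of Fdps in the spleen-labelled library. The set was chosen with results of these data known: Idi1, Fdps and Scd2 were picked because their levels were high in the high-dose neutrophils. Their values in that contrast are therefore a description.

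The cells came from female BALB/cAnNCrl mice bought at 7 to 8 weeks of age, in which 4T1-Luc breast carcinoma cells had been placed by a hemisplenectomy procedure to form liver metastases. The mice received a hepatic arterial infusion (HAI) of vehicle, a dextrose solution, or of CBL0137, a curaxin that binds DNA and traps the histone chaperone FACT on chromatin. Leukocytes were collected 5 days after treatment, and cells of 2 mice were pooled per group. Antibody hashtags marked the groups within each library: A0301 the vehicle, A0305 the low dose and A0310 the high dose. None of the sources used here gives the doses behind these names. Each group was thus 1 pool per library, no test between groups was possible, and the 95% intervals below cover counting error only. Vehicle cells served both dose contrasts.

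After hashtag calling, the liver-labelled library held 3103 vehicle, 3194 low-dose and 2138 high-dose cells out of 9591 barcodes, with a median of 4673 UMIs per barcode. For the spleen-labelled library these were 822, 1301 and 865 cells out of 4830 barcodes, with a median of 3368.5 UMIs. The tissue markers went against the labels: Clec4f, which marks the Kupffer cells of the liver, had 0 UMIs in the liver-labelled library and 3520 in the spleen-labelled library, and the 8 hepatocyte genes summed to 0.0874 and 81.1 CPM (UMIs scaled to a common library total of 1000000). The libraries are called by their labels throughout. They shared 15 barcodes.

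Cholesterol is built from acetyl units through mevalonate, isoprenoid and squalene intermediates. When sterols run low in the membrane of the endoplasmic reticulum, the SCAP protein carries the transcription factor SREBP (sterol regulatory element-binding protein) away for cleavage, and the cleaved factor raises transcription of the pathway's enzymes. When sterols are plentiful, INSIG proteins hold the complex back. In this pathway Hmgcs1 makes HMG-CoA, Idi1 interconverts the isoprenoid isomers, Fdps makes farnesyl diphosphate, Fdft1 joins it into squalene, Sqle oxidises squalene and Cyp51 demethylates lanosterol. Insig1 encodes one of the INSIG proteins and is itself an SREBP target. Scd2 encodes a stearoyl-CoA desaturase, which makes monounsaturated fatty acids and is also under SREBP control.

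On GRCm38 (mm10), in GENCODE M21, the enzyme genes lie at chr13:119690379-119708260 (Hmgcs1), chr13:8885501-8892451 (Idi1), chr3:89093588-89101959 (Fdps), chr14:63145150-63179578 (Fdft1), chr15:59315077-59331192 (Sqle) and chr5:4081145-4104746 (Cyp51). Insig1 lies at chr5:28071363-28078662 and Scd2 at chr19:44293674-44306864, and Fdps, Fdft1 and Cyp51 are on the minus strand. Values are per gene, and no source used here says whether intronic reads were counted.

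SREBP binds sterol regulatory elements, often beside a CCAAT box bound by the factor NF-Y, so the upstream sequences of 2 members are shown. RefSeq promoter windows on GRCm38.p6 were matched for 4 of the 8 members, Idi1, Hmgcs1, Cyp51 and Insig1. The letters TCACNCCAC, a form of the sterol regulatory element, were searched on both strands of the 250 bases upstream and were found in 346 of all 32851 windows, or 1.05%, and in 1 of the 4 member windows, that of Hmgcs1. The letters CCAAT, which do not overlap the first motif, were found on either strand in 33.8% of all windows and in 4 of the 4 member windows. Among the other sterol enzymes, 13 of 17 windows held CCAAT and 0 of 17 held TCACNCCAC. The printed stretches end before the start of the gene in both annotations, run 5′ to 3′ on the plus strand, and carry the matches in capitals, with ATTGG the reverse complement of CCAAT. Distances are from the earlier of the RefSeq and GENCODE starts. The CCAAT matches of Idi1 and Cyp51 lay downstream of that start and are not printed. The TCACCCCAC match of Hmgcs1 began 137 bases before the start, with ATTGG matches at 237, 176 and 45 bases before it. The ATTGG match of Insig1 began 167 bases before its start.
Hmgcs1, chr13:119690101-119690350: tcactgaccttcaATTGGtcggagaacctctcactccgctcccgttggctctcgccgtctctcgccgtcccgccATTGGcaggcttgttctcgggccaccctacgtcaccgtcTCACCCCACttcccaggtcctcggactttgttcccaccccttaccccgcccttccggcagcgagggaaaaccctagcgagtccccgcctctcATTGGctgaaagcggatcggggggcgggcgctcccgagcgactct
Insig1, chr5:28071162-28071362: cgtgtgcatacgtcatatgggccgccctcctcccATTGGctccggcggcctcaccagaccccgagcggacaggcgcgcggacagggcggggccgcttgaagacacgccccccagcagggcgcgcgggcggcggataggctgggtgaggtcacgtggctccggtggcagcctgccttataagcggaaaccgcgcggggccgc
A match is a description of these letters and says nothing on binding.

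Cells were clustered within each library and clusters were named by fixed markers as, for example, neutrophil-like. Clusters without enough markers, such as a mitochondrial and a cycling cluster of the liver-labelled library, stayed unnamed and entered no class. With all groups pooled, the sum of the 8 genes was highest in the plasmacytoid dendritic cell-like cells of the spleen-labelled library, at 1010 CPM, although these were 25 cells and 187 UMIs. Next came granulocyte progenitor-like cells at 441 CPM (421 to 461), 4T1 tumor cell-like cells at 400 CPM (376 to 425) and dendritic cell-like cells at 360 CPM (322 to 401), each overlapping its neighbour. B cell-like cells were lowest there, at 144 CPM (114 to 180), next to hepatocyte-like cells at 180 CPM (145 to 221). The hepatocyte-like class was cluster 7, led mostly by mitochondrial genes such as mt-Nd3 and mt-Nd2, beside Alb and Apoa1. Of the hepatocyte markers 4 were raised in it, so its values may not be those of intact hepatocytes. For the liver-labelled library the order began with dendritic cell-like cells at 378 CPM (325 to 437) and erythroid-like cells at 342 CPM (325 to 359), which overlapped. Its lowest class was macrophage-like at 109 CPM (83.1 to 141). This overlapped plasma cell-like cells at 111 CPM (85.9 to 141), NK cell-like cells at 125 CPM (100 to 155) and B cell-like cells at 145 CPM (135 to 155). These orders depend on the mix of groups. In vehicle cells of the liver-labelled library, dendritic cell-like cells were at 224 CPM, below erythroid-like (321), monocyte-like (251) and granulocyte progenitor-like cells (235). Vehicle hepatocyte-like cells of the spleen-labelled library were at 236 CPM, above T cell-like cells at 132 CPM. Macrophage-like and B cell-like cells stayed lowest in their libraries, at 84.4 and 102 CPM, among classes with at least 20 vehicle cells.

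The 8 genes did not share 1 order of cell classes. Fdps was highest in granulocyte progenitor-like cells of the liver-labelled library, at 192 CPM (183 to 201) against 118 CPM (89.6 to 153) in the dendritic cell-like cells that came next. In the spleen-labelled library it stood at 351 CPM (271 to 448) in plasmacytoid dendritic cell-like cells, 184 CPM (171 to 197) in granulocyte progenitor-like cells and 165 CPM (157 to 174) in neutrophil-like cells, and the last 2 overlapped. Scd2 had another place in neutrophil-like cells of the liver-labelled library: it was at 15.8 CPM (14.4 to 17.4), the lowest value of that library, with T cell-like cells next at 21.5 CPM (19.0 to 24.2) and only the interval of plasma cell-like and NK cell-like cells, which had 17 and 15 UMIs, reaching down to it. Erythroid-like cells, at 110 CPM (100 to 120) of Scd2, overlapped dendritic cell-like cells, at 91.3 CPM (66.4 to 123), at the top of that library. Tumor cell-like, endothelial-like, macrophage-like and granulocyte progenitor-like cells of the spleen-labelled library all lay between 146 and 156 CPM of Scd2, with overlapping intervals.

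Insig1, the sterol sensor's partner, was low in neutrophil-like cells of both libraries, at 4.29 CPM (3.54 to 5.14) and 6.63 CPM (5.07 to 8.52), where monocyte-like cells had 18.8 CPM (15.5 to 22.7) and 32.2 CPM (25.2 to 40.4). Idi1 was at 113 CPM (70.2 to 173) in plasmacytoid dendritic cell-like cells and at 45.2 CPM (36.8 to 54.9) in T cell-like cells of the spleen-labelled library. Sqle was at 36.6 CPM (29.7 to 44.7) in 4T1 tumor cell-like cells, and 0 UMIs of it were counted in endothelial-like and in hepatocyte-like cells, which allows up to 3.40 and 5.94 CPM. Levels of different genes were not compared with each other.

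**Figure D1:**
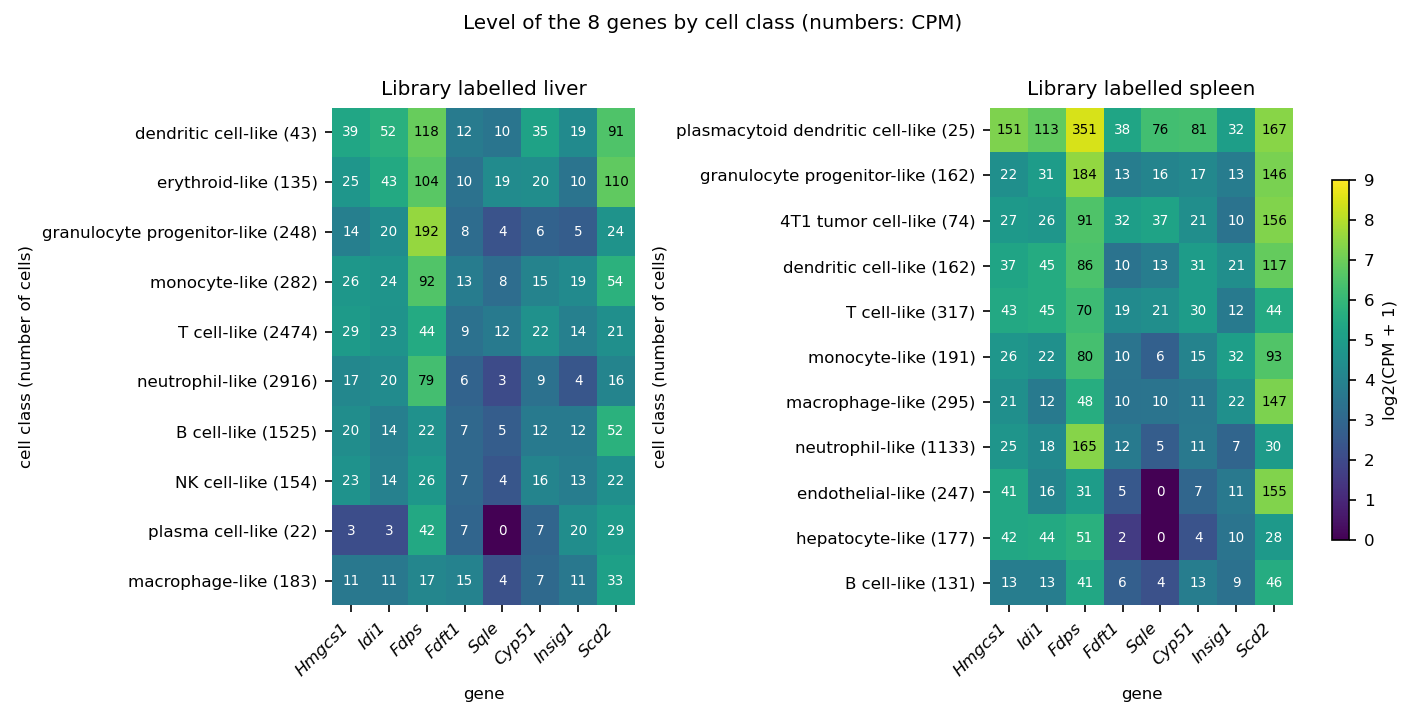
Level of the 8 genes in each cell class with all hashtag groups pooled, in CPM, with classes ordered by the sum of the 8 genes and the number of cells in brackets; colour is log2(CPM + 1). Read down a column: plasmacytoid dendritic cell-like cells have the top value for each gene in the spleen-labelled library, with Insig1 at 32.4 CPM against 32.2 CPM in monocyte-like cells. The intervals of Insig1 overlap between these 2 classes, and those of Fdft1, Sqle and Scd2 overlap with 4T1 tumor cell-like cells. Insig1 and Fdft1 rest on 6 and 7 UMIs. The 25 cells were 5 vehicle, 8 low-dose and 12 high-dose cells.

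Neutrophil-like cells were the class on which 3 of the genes had been chosen. The liver-labelled library held 1428 vehicle, 1289 low-dose and 199 high-dose neutrophil-like cells, and the spleen-labelled library held 359, 620 and 154. Over all called cells, the median UMIs per vehicle, low-dose and high-dose cell were 4497, 4663 and 4794 in the first library. In the second they were 5107.5, 4694 and 7930. In neutrophil-like cells the medians were 4367, 5724 and 18606 in the first and 4913, 4299 and 14205.5 in the second. The high-dose neutrophil-like cells thus held several times more UMIs each. Levels are therefore given as CPM of the summed UMIs of a group, and differences as log2 ratios of those CPM values.

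Hmgcs1, at the entry of the pathway, was at 14.0 CPM (12.0 to 16.3) in vehicle, 16.2 CPM (13.9 to 18.7) in low-dose and 29.2 CPM (24.1 to 34.9) in high-dose cells of the liver-labelled library. The spleen-labelled library had it at 21.7, 18.3 and 39.7 CPM. The high-dose level was the highest in both libraries and its interval overlapped neither other group, with log2 ratios to vehicle of 1.05 (0.70 to 1.40) and 0.87 (0.39 to 1.35).

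Idi1 was at 12.0 CPM (10.1 to 14.1), 19.5 CPM (17.0 to 22.3) and 42.1 CPM (36.0 to 49.0) in vehicle, low-dose and high-dose cells of the liver-labelled library. These 3 intervals were apart. The spleen-labelled library gave 14.6, 12.5 and 33.2 CPM, where low dose and vehicle overlapped and high dose stood above both. Its log2 ratios at the high dose were 1.82 (1.49 to 2.15) and 1.19 (0.63 to 1.76).

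Fdps, whose product is also the source of farnesyl and geranylgeranyl groups on proteins, was at 58.4 CPM (54.1 to 62.8), 66.6 CPM (61.9 to 71.6) and 172 CPM (160 to 186) in the liver-labelled library, and at 153, 125 and 250 CPM in the spleen-labelled library. High-dose cells were highest in both. At the low dose the libraries parted, with Fdps above vehicle in the first, at a log2 ratio of 0.19 (0.04 to 0.34), and below it in the second, at -0.30 (-0.48 to -0.11). Neither direction held under each alternative, with -0.016 in the first when granulocyte progenitor-like cells were added and 0.33 in the second after thinning each cell to 500 UMIs. Fdps supplied 698 of the 1353 UMIs of the 8 genes in vehicle cells of the liver-labelled library, so sums over the 8 genes lean on it. The annotated genes Gm43738 and Gm22935 overlap Fdps on its strand, so its counts are uncertain where reads are shared with them.

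Fdft1, the first enzyme committed to sterols, was at 6.19, 5.41 and 9.22 CPM in the liver-labelled library and at 9.17, 10.4 and 16.8 CPM in the spleen-labelled library. Its high-dose interval reached across 0 in the first, at a log2 ratio of 0.58 (-0.03 to 1.16), and lay above 0 in the second, at 0.88 (0.13 to 1.64). Sqle, a rate-limiting enzyme after squalene, had few UMIs. It was at 2.09, 4.06 and 3.74 CPM in the liver-labelled library, from 25, 45 and 15 UMIs, and at 3.06, 3.56 and 10.8 CPM in the spleen-labelled library, from 9, 14 and 25 UMIs. The second library alone put its high-dose interval above 0, at 1.82 (0.67 to 3.10).

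Cyp51 was at 6.44, 9.29 and 17.7 CPM in the liver-labelled library and at 9.17, 7.38 and 21.1 CPM in the spleen-labelled library. The high-dose cells were highest in both, with log2 ratios of 1.46 (0.97 to 1.94) and 1.21 (0.50 to 1.94). Scd2 was at 10.0, 19.1 and 23.9 CPM in the liver-labelled library and at 20.0, 35.9 and 31.9 CPM in the spleen-labelled library. The interval of Scd2 lay above 0 at both doses in both libraries, with low-dose log2 ratios of 0.93 (0.60 to 1.27) and 0.84 (0.39 to 1.30) beside high-dose ratios of 1.25 (0.85 to 1.65) and 0.67 (0.16 to 1.19). The low-dose ratio of the spleen-labelled library was 0.16 (-0.36 to 0.69) over clusters with at least 20 cells of both groups, which leaves out cluster 13. Insig1, the brake on the system, was at 4.01, 4.69 and 3.99 CPM and at 4.75, 7.38 and 7.77 CPM. Its intervals overlapped between all groups, with high-dose ratios of -0.01 (-0.93 to 0.83) and 0.71 (-0.38 to 1.83), so that no difference was detectable at this depth.

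**Figure D2:**
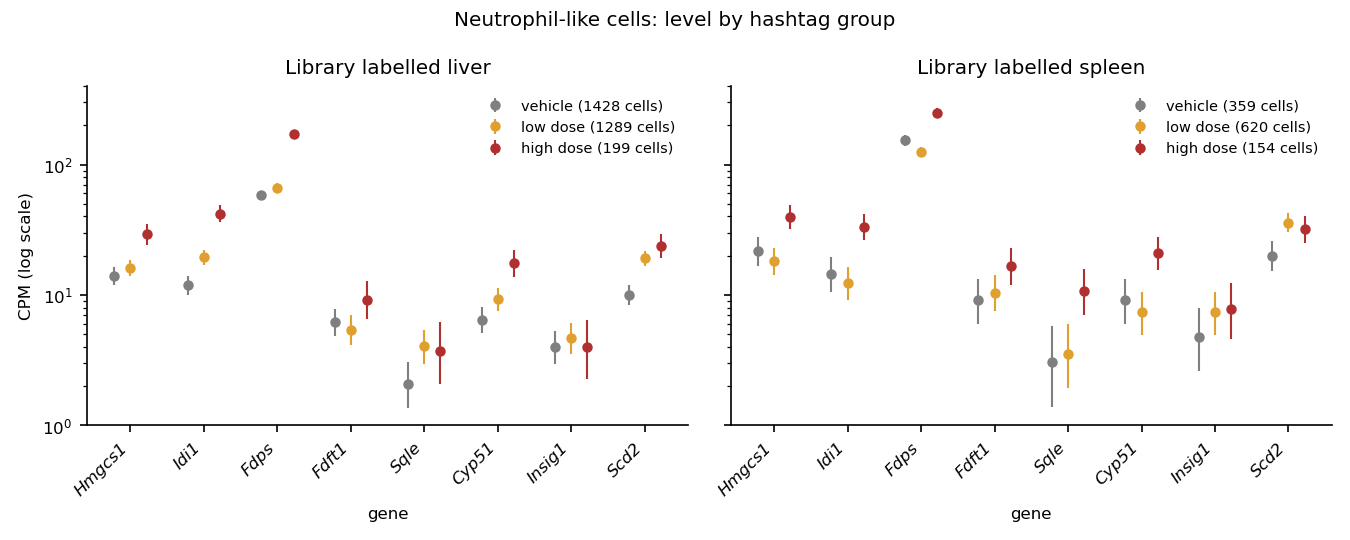
Level of each gene in neutrophil-like cells of the 3 hashtag groups, in CPM on a log axis; points are the summed UMIs of a group and bars the exact 95% Poisson interval. High-dose points lie above vehicle for Hmgcs1, Idi1, Fdps, Cyp51 and Scd2 in both libraries, while Insig1 stays at 3.99 CPM beside 4.01 CPM in the liver-labelled library.

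At the high dose, 5 of the 8 genes had the interval above 0 in the liver-labelled library, where this held for 6.17% of 10354 genes tested, and 7 of 8 in the spleen-labelled library, where it held for 9.44% of 8899 genes. None of the 8 had it below 0, against 33.8% and 7.99% of all genes. Nothing is read from these counts for the genes chosen on this contrast. The median log2 ratio of the 8 was 1.15 and 0.87, against -0.39 and 0.02 over all genes tested. The typical gene of the liver-labelled library thus had a lower CPM at the high dose. Summed, the 8 genes went from 113 CPM (107 to 119) to 302 CPM (285 to 320), a log2 ratio of 1.42 (1.30 to 1.53), and from 236 CPM (218 to 254) to 412 CPM (386 to 439), a ratio of 0.80 (0.66 to 0.95). At the low dose, 5 of 8 genes were above in the liver-labelled library, against 6.21% of all genes, and none below, against 17.1%, with a sum at 0.36 (0.25 to 0.46). The spleen-labelled library had 1 of 8 above, Scd2, against 8.44% of all genes, and 1 below, Fdps, against 12.3%, with a sum at -0.10 (-0.24 to 0.05).

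Because the high-dose neutrophil-like cells held more UMIs, each cell was also thinned to 500 UMIs. The share of neutrophil-like cells with a UMI of any of the 8 genes was then 3.29% (2.43 to 4.35) in vehicle and 16.1% (11.3 to 21.9) in high-dose cells of the liver-labelled library, and 4.18% (2.36 to 6.80) and 13.6% (8.64 to 20.1) in the spleen-labelled library. The unthinned shares were 32.1% and 85.9%, and 43.2% and 86.4%. No barcode had fewer UMIs, so none was left out. No class was without UMIs of these genes, so no background share could be set beside them.

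Vehicle and high-dose neutrophil-like cells lay largely in different clusters. Clusters 2 and 3 of the liver-labelled library, led by Il1b and Igfbp6 among others, held 45.4% and 24.6% of vehicle but 4.52% and 1.51% of high-dose cells, and over all groups they had sums of 61.5 CPM and 37.7 CPM of the 8 genes, below the other neutrophil-like clusters of that library. High-dose cells lay mainly in cluster 6, led by the stefin genes Stfa3 and Stfa2, with 56.3%, and in cluster 7, led by the granule genes Ltf, Camp and Ngp, with 27.1%. Vehicle cells had a median of 3234 and 3158 UMIs in clusters 2 and 3, and of 13127 and 23193 in clusters 6 and 7. Cluster 2 of the spleen-labelled library, with 27.6% of vehicle and 1.95% of high-dose cells, had a sum of 82.6 CPM. Its stefin cluster 0 and its Camp and Cebpe cluster 8 held 44.2% and 28.6% of high-dose cells. A difference over the whole class therefore mixes which cells were present with the level within them, so the contrast was repeated within clusters that held at least 20 cells of both groups.

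Within the stefin cluster 6 of the liver-labelled library, with 158 vehicle and 112 high-dose cells, the sum was 124 and 282 CPM, a log2 ratio of 1.18 (0.97 to 1.40). Here 5 of 8 genes had the interval above 0, against 6.86% of all genes: Hmgcs1, Idi1, Fdps, Cyp51 and Scd2. Of these, Idi1, Fdps and Scd2 had been chosen for high levels in high-dose neutrophils. The counts of the 8 genes in this and the other neutrophil-like clusters are therefore descriptions. Idi1 went from 17.7 to 47.4 CPM and Fdps from 58.3 to 150 CPM. The same 5 genes were above 0 in the granule cluster 7, with 189 and 54 cells, where the sum was 152 and 356 CPM, a ratio of 1.23 (1.07 to 1.39), against 7% of all genes. Fdps there was at 84.6 and 219 CPM and Scd2 at 10.9 and 27.5 CPM. In cluster 10, with 81 and 21 cells, none of the 8 genes was above 0, against 7.42%, and the sum was 152 and 222 CPM, at 0.54 (0.14 to 0.93).

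The spleen-labelled library was less even. In its stefin cluster 0, with 84 and 68 cells, the sum was 180 and 324 CPM, at 0.84 (0.51 to 1.18), and 3 of 8 genes were above 0, against 6.21%. Idi1 was at 9.84 and 41.8 CPM, Cyp51 at 14.8 and 33.7 CPM, and Sqle was counted 0 times in vehicle and 9 times in high-dose cells. Cluster 9, led by Ltf and Ly6g, with 46 and 27 cells, had 212 and 524 CPM, at 1.30 (0.98 to 1.64), and 4 of 8 genes above 0, against 6.67%. In cluster 8, with 66 and 44 cells and the highest cell cycle signal, the sum was 328 and 427 CPM, at 0.38 (0.18 to 0.58), and 1 of 8 genes, Fdps, was above 0, against 7.60%. The 6 high-dose sums were all above vehicle. These sums and the counts of the 8 genes are descriptions only, since Fdps, Idi1 and Scd2 had been chosen for high levels in these high-dose cells. The clusters also held other shares of low-dose cells, such as 23.5% in cluster 2 of the liver-labelled library, against 45.4% of vehicle cells. At the low dose 2, 0, 2, 1 and 1 of 8 genes were above 0 in its clusters 2, 3, 6, 7 and 10. This held for 5.98%, 4.39%, 5.76%, 4.45% and 6.08% of all genes. Below 0 was 1 gene, in cluster 7, against 4.86% of all genes. In clusters 0, 2, 6, 8 and 9 of the spleen-labelled library, 0, 0, 0, 0 and 1 were above 0. The shares of all genes were 5.29%, 3.41%, 5.16%, 3.15% and 2.50%. Below 0 there were 1, 0, 0, 1 and 0 genes, against 7.43%, 6.35%, 7.17%, 3.63% and 7.04%.

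**Figure D3:**
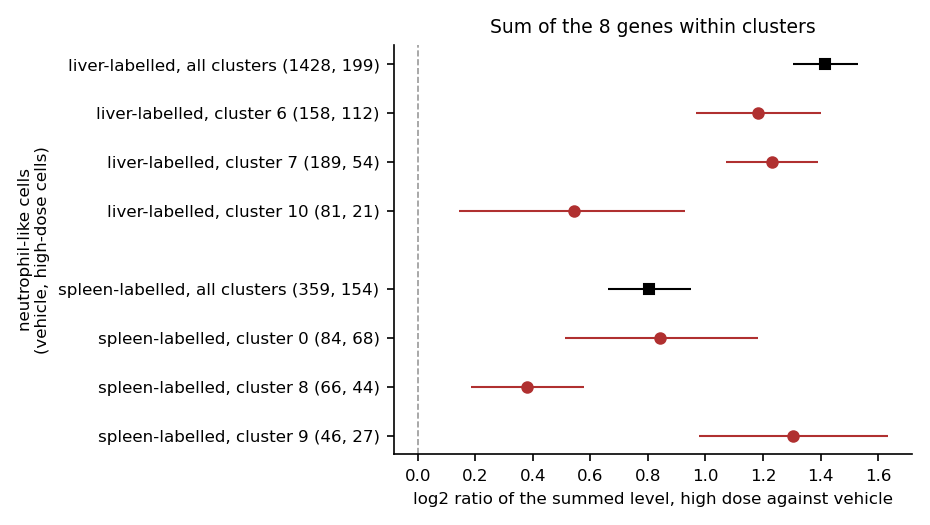
Log2 ratio of the summed level of the 8 genes, high dose against vehicle, in all neutrophil-like cells (squares) and within each neutrophil-like cluster with at least 20 cells of both groups (circles), with the exact 95% counting interval; brackets give vehicle and high-dose cells. Each interval lies above 0, from 0.38 in cluster 8 to 1.30 in cluster 9 of the spleen-labelled library.

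Other measures moved with the high dose in these cells. A list of 6 mature neutrophil genes summed to 13156, 13587 and 8556 CPM in vehicle, low-dose and high-dose cells of the liver-labelled library and to 9419, 14090 and 5235 CPM in the spleen-labelled library. Most of these sums was 1 gene, Retnlg, at 10258, 10127 and 6657 CPM and at 6791, 9661 and 3568 CPM. The 8 cell cycle genes summed to 98.8, 82.7 and 122 CPM and to 693, 408 and 842 CPM. Both lists also differed within some clusters and were nearly level in others. The mature list went from 19144 CPM in vehicle to 12137 CPM at the high dose in cluster 6, from 2442 to 2306 CPM in cluster 7 and from 18951 to 12770 CPM in cluster 10 of the liver-labelled library. In clusters 0, 8 and 9 of the spleen-labelled library it went from 18584 to 10871 CPM, from 411 to 486 CPM and from 5889 to 4464 CPM. The cell cycle list went from 18.1 to 17.8 CPM, from 200.3 to 281 CPM and from 11.7 to 11.1 CPM in clusters 6, 7 and 10, and from 47.6 to 80.9 CPM, from 1518 to 1821 CPM and from 82.0 to 78.8 CPM in clusters 0, 8 and 9. The within-cluster contrasts above are therefore not free of these shifts. A list of 7 immature neutrophil genes summed to 39339, 40334 and 40676 CPM in the liver-labelled library and to 46147, 40279 and 47896 CPM in the spleen-labelled library. Within clusters of the liver-labelled library it went both ways, such as from 19585 to 21689 CPM in cluster 6 and from 80528 to 69336 CPM in cluster 7. The 8 hepatocyte genes summed to 25.1, 61.3 and 140 CPM in neutrophil-like cells of the spleen-labelled library and to 0.0836, 0.0902 and 0 CPM in those of the liver-labelled library, where 8 of 8 were at 0 at the high dose. In cluster 9 of the spleen-labelled library they were at 10.7 CPM in vehicle and 90.3 CPM in high-dose cells. The 5 granulocyte progenitor genes summed to 181, 141 and 164 CPM in vehicle, low-dose and high-dose cells of the liver-labelled library. In the spleen-labelled library they summed to 4848, 2836 and 3444 CPM. The 6 basophil genes summed to 0.752, 1.80 and 96.2 CPM in the liver-labelled library. In the spleen-labelled library they summed to 2.38, 2.80 and 0.863 CPM, with the high dose lowest. The 10 macrophage genes summed to 23.6, 16.2 and 3.24 CPM in the first library and to 72.3, 43.0 and 239 CPM in the second. The part of these in the result was not tested.

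The rest of the pathway was read from fixed lists in the same neutrophil-like cells. Of 16 other sterol enzymes, 14 had at least 10 UMIs in each library at the high dose. In the liver-labelled library 9 of these 14 had the interval above 0 and 1, Sc5d, below it, against 6.17% and 33.8% of all genes, with a median log2 ratio of 0.54 against -0.39. In the spleen-labelled library 6 of 14 were above and 0 below, against 9.44% and 7.99%, with a median of 0.50 against 0.02. At the low dose 3 of 16 were above and 0 below in the first library, against 6.21% and 17.1% of all genes, and 0 of 13 above and 3 below in the second, against 8.44% and 12.3%. Within clusters of the liver-labelled library the high-dose counts above 0 were 4 of 11 in cluster 6, 2 of 13 in cluster 7 and 1 of 9 in cluster 10, against 6.86%, 7% and 7.42% of all genes. In clusters 0, 8 and 9 of the spleen-labelled library they were 1 of 11, 3 of 13 and 0 of 10, against 6.21%, 7.6% and 6.67%. With so few genes, 1 or 0 in a cluster is near the share of all genes. None was below 0 in any of the 6 clusters. Of all genes, 4.89%, 3.76% and 2.66% were below 0 in clusters 6, 7 and 10 of the liver-labelled library. In clusters 0, 8 and 9 of the spleen-labelled library 5.65%, 2.18% and 2.93% were. With so few genes, nothing is read from the absence of genes below 0.

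Nsdhl and Hsd17b7 act late in the pathway, on the way from lanosterol to cholesterol. Nsdhl was at 4.18 and 8.97 CPM in vehicle and high-dose cells of the liver-labelled library and at 5.43 and 10.4 CPM in the spleen-labelled library, with log2 ratios of 1.10 (0.44 to 1.75) and 0.93 (-0.04 to 1.94). Hsd17b7 was at 3.43 and 6.73 CPM and at 4.07 and 10.8 CPM, with ratios of 0.97 (0.22 to 1.71) and 1.40 (0.36 to 2.53). Within clusters, Nsdhl had its interval above 0 in none. Among cluster comparisons with at least 10 UMIs, Hsd17b7 had it above 0 in cluster 8 of the spleen-labelled library alone, at 2.07 (0.11 to 4.57).

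Of the 6 SREBP regulators, 1 was above and 2 were below 0 in the liver-labelled library, against 6.17% and 33.8% of all genes, so the share below was that of all genes. The spleen-labelled library had 1 above and 1 below, against 9.44% and 7.99%. Srebf2, which encodes the SREBP most active on cholesterol genes, was the one above in both, at 16.8 and 25.9 CPM in vehicle and high-dose cells of the first and 17.3 and 43.1 CPM of the second. Its log2 ratios were 0.63 (0.27 to 0.97) and 1.32 (0.82 to 1.83). Within clusters its interval was above 0 in 3 of 3 of the spleen-labelled library, at 1.83 in cluster 0, 0.92 in cluster 8 and 1.32 in cluster 9, and in none of the 3 of the liver-labelled library.

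Genes of cholesterol uptake and export lay on both sides of vehicle. Mylip, a ubiquitin ligase that limits lipoprotein uptake and is induced by the sterol-sensing liver X receptors, was lower at the high dose, with log2 ratios of -2.25 (-3.42 to -1.28) and -2.90 (-6.05 to -0.85), from 128 vehicle and 9 high-dose UMIs in the first library and 19 and 2 in the second. Within clusters, Mylip had at least 10 UMIs only in clusters 6 and 7 of the liver-labelled library. Its ratios there were -1.61 (-3.68 to 0.09) and -0.68 (-2.69 to 0.91), and both intervals reached across 0. Stard4, a cholesterol carrier within the cell, was at 1.23 (0.62 to 1.82) and 0.61 (-0.21 to 1.44) over the whole class.

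Of the 5 tested genes of cholesterol efflux and esters, 0 were above and 3 below 0 in the liver-labelled library, against 6.17% and 33.8% of all genes, and 1 was above and 2 below in the spleen-labelled library, against 9.44% and 7.99%. Abca1 and Abcg1 are cholesterol exporters and targets of the liver X receptors. Abca1 was at 24.7 and 8.72 CPM in vehicle and high-dose cells of the liver-labelled library and at 17.3 and 7.77 CPM in the spleen-labelled library, with ratios of -1.50 (-2.05 to -0.996) and -1.16 (-2.02 to -0.36). Abcg1 was at 28.5 and 2.24 CPM and at 14.6 and 5.61 CPM, with ratios of -3.67 (-4.81 to -2.73) and -1.38 (-2.40 to -0.46). Within clusters, of the comparisons with at least 10 UMIs, Abca1 had its interval below 0 in none and Abcg1 in cluster 7 of the liver-labelled library alone, at -2.56 (-5.66 to -0.60). Apoe, the lipid carrier protein, went in opposite directions, from 114 to 4.49 CPM in the liver-labelled library and from 236 to 568 CPM in the spleen-labelled library. In the latter its vehicle and high-dose levels were 75.5 and 903 CPM in cluster 0 and 601 and 290 CPM in cluster 9, so it followed no common direction. Within clusters 6 and 7 of the liver-labelled library the ratios of Apoe were -3.44 (-4.80 to -2.33) and -2.80 (-4.03 to -1.78). Macrophages are a rich source of Apoe, and the part of macrophage RNA in these levels was not tested.

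Fatty acid synthesis genes were mostly too low to read, with 4 of 9 tested in each library. Acss2, an acetyl-CoA synthetase, was above 0 in the liver-labelled library and Acly, which makes cytosolic acetyl-CoA, in the spleen-labelled library. That was 1 of 4 in each, against 6.17% and 9.44% of all genes. None was below, against 33.8% and 7.99%. With so few genes, nothing is read from these counts.

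**Figure D4:**
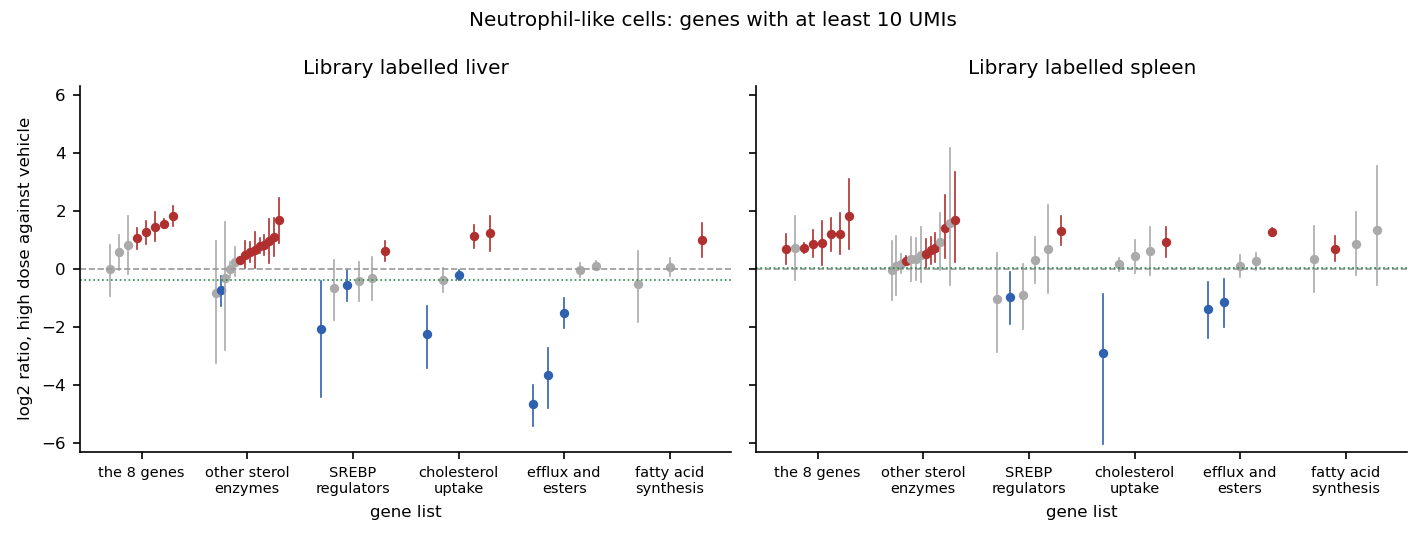
Log2 ratio of each gene with at least 10 UMIs, high dose against vehicle, in neutrophil-like cells, by gene list, with exact 95% counting intervals; red intervals lie above 0, blue below, grey reach across it, and the green dotted line is the median of all genes tested (-0.39 and 0.02). The other sterol enzymes have 9 of 14 and 6 of 14 red points, while the lowest ratios of genes with UMIs in both groups are Apoe, at -4.67, on the left and Mylip, at -2.90, on the right.

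Other cell classes were compared in the same way. Granulocyte progenitor-like cells are the precursors marked by Elane, Prtn3 and Ms4a3. In the liver-labelled library their sum was 235 CPM in 108 vehicle and 441 CPM in 42 high-dose cells, at 0.91 (0.77 to 1.05). Of the 8 genes, 4 were above 0, against 11.8% of all genes: Idi1 at 16.7 and 36.9 CPM, Fdps at 171 and 320 CPM, Sqle at 3.01 and 9.08 CPM and Cyp51 at 3.56 and 13.1 CPM. The spleen-labelled library had under 20 high-dose cells of this class. Its low-dose progenitor-like cells had 3 of 8 genes above 0, against 8.79% of all genes, namely Sqle, Cyp51 and Scd2, and a sum of 490 CPM against 360 CPM in vehicle.

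T cell-like cells differed between the libraries. In the spleen-labelled library the sum was 132 CPM (30 UMIs) in 44 vehicle cells, 249 CPM in 104 low-dose and 325 CPM in 169 high-dose cells, at log2 ratios of 0.91 (0.34 to 1.53) and 1.29 (0.76 to 1.88). Idi1 had 2, 28 and 71 UMIs, or 8.83, 43.9 and 51.8 CPM, and Fdps had 6, 44 and 107 UMIs, or 26.5, 69.0 and 78.1 CPM. Idi1, Fdps and Cyp51 were above 0 at both doses, against 4.26% of all genes at the low and 6.05% at the high dose, and these 3 rest on 9 vehicle UMIs in all. In cluster 4, the cytotoxic cells led by Gzma and Ccl5, the sum was 156 and 351 CPM in 24 vehicle and 117 high-dose cells, and Idi1, Fdps and Cyp51 were above 0, or 3 of 8 genes, against 5.59% of all genes. Cluster 14, with 20 vehicle, 44 low-dose and 52 high-dose cells, had 1 of 8 genes above 0 at the high dose, against 4.03% of all genes. At the low dose it had 0, against 4.4%. Cluster 4 held 24 of the 44 vehicle but 117 of the 169 high-dose cells of the class, and the part of this was not tested. The liver-labelled library, with 592, 861 and 1021 T cell-like cells, gave sums of 158, 205 and 164 CPM, with ratios of 0.38 (0.21 to 0.54) at the low and 0.06 (-0.11 to 0.22) at the high dose. There, at the high dose, Fdps was above vehicle at 0.36 (0.02 to 0.71), against 6.54% of all genes, and Hmgcs1 below it at -0.48 (-0.87 to -0.09), against 4.09%.

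For monocyte-like cells, which share the myeloid lineage with neutrophils, no difference of the sum was detectable, at -0.23 (-0.50 to 0.04) and -0.06 (-0.37 to 0.25) at the high dose. Macrophage-like cells of the spleen-labelled library had sums of 219, 293 and 296 CPM, at 0.42 (0.16 to 0.68) and 0.43 (0.19 to 0.68). Of the 8 genes, 1 was above 0 at the low and 0 at the high dose, against 6.99% and 7.83% of all genes. This class joined cluster 3, with 51, 86 and 82 vehicle, low-dose and high-dose cells, and the Clec4f cluster 15, with 9, 27 and 40. The part of this mix in the sums and in the Scd2 levels of the class was not tested. Hepatocyte-like cells, the cluster led mostly by mitochondrial genes, had 236 and 120 CPM in vehicle and high dose. The log2 ratio was -0.97 (-1.72 to -0.21), where 24.7% of the genes tested were below 0. The place of neutrophil-like cells among the classes is not read as a result, since Idi1, Fdps and Scd2 were chosen for their high-dose level in those cells and Fdps is a large share of the sum.

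**Figure D5:**
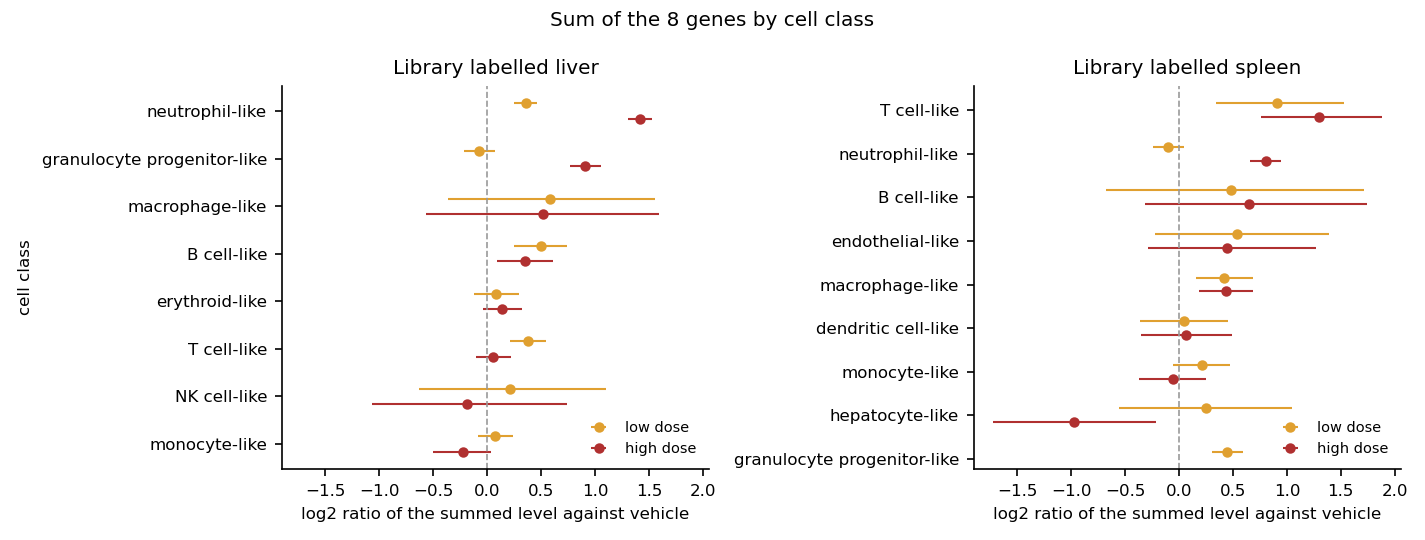
Log2 ratio of the summed level of the 8 genes against vehicle in each cell class with at least 20 cells of both groups, for the low and the high dose, with exact 95% counting intervals. In the liver-labelled library the high-dose point of neutrophil-like cells lies at 1.42 and that of monocyte-like cells at -0.23; in the spleen-labelled library T cell-like and neutrophil-like cells lie at 1.29 and 0.80.

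At the low dose Scd2 had its interval above 0 in more classes than any other of the 8 genes. In the liver-labelled library its interval lay above 0 in 6 of the 8 classes compared, and below 0 in none. Vehicle and low-dose levels were 37.2 and 89.9 CPM in monocyte-like, 68.3 and 131 CPM in erythroid-like, 17.3 and 31.3 CPM in granulocyte progenitor-like, 46.7 and 65.6 CPM in B cell-like and 16.4 and 24.6 CPM in T cell-like cells, beside the neutrophil-like cells above. Monocyte-like cells had the highest ratio, 1.27 (0.93 to 1.62). The B cell-like class differed in its clusters between the 2 groups. Cluster 17 held 2 vehicle and 150 low-dose cells, and cluster 19 held 46 and 1. The part of this in the B cell-like ratio was not tested. Of 4141 genes tested in all 8 classes, 3 had the interval above 0 in 6 or more of them, or 0.0724%: Scd2, the heat shock gene Hsp90aa1 and Gm42418, which overlaps ribosomal RNA sequence. These names were chosen after their values were seen, and the limit of 6 classes was the value of Scd2 itself. Neutrophil-like cells, 1 of the 6, share their vehicle cells with the contrast on which Scd2 was chosen. The share is therefore a description, as is that for the spleen-labelled library, whose limit was set in the same way. In the spleen-labelled library Scd2 was above 0 in 4 of 7 classes with at least 10 of its UMIs, which held for 2.23% of 4706 genes: granulocyte progenitor-like cells at 91.4 and 181 CPM, macrophage-like cells at 117 and 181 CPM, monocyte-like cells at 61.9 and 105 CPM, and neutrophil-like cells. In the last, cluster 13 alone, with 119 of its 124 cells from the low dose, had 131 CPM of Scd2, and without clusters short of cells of either group the ratio was 0.16 (-0.36 to 0.69). No other of the 8 genes had its interval above 0 at the low dose in more than 3 classes of a library.

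The 8 genes varied together only in part. Over 38 pools of a library, class and group with at least 50 cells, the strongest correlation of log2(CPM + 10) between members was that of Sqle with Cyp51, at r = 0.68, followed by Idi1 with Hmgcs1, at 0.57, and Idi1 with Fdps, at 0.51. Scd2 was near 0 with Idi1, at -0.04, and with Fdps, at 0.01. Among 5645 genes with a mean of at least 20 CPM, those closest to the mean of the 8 were Psmb7 (r = 0.75), Got2 (0.74), Impa2 (0.71), Mospd3 (0.69) and Klhdc4 (0.69). These are descriptions, since pools share libraries, vehicle cells and depth.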

How the data were processed

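The authors deposited, for each of 2 droplet libraries, a matrix of UMI counts per gene and barcode with hashtag counts, made with Cell Ranger on mm10, and per the labels Seurat was used. The matrix header names Cell Ranger 5.0.0, the submitters' processing notes 6.0.0, and the study's methods another version. Hashtags were called with HTODemux (quantile 0.99, Seurat 5.3.0), which removed 616 and 215 doublets and 540 and 1627 negatives, so cells of doublets within a group could remain. Scrublet marked 248 barcodes (2.59%) in the liver-labelled library and 1 in the other, where it did not work. Counts were normalized with SCTransform 0.4.2 and clustered on 30 principal components at resolution 0.8, with the listed lipid genes left out of the variable genes. A cluster was named when at least 3 fixed markers of a type had a log2 fold of 1 or more and were found in at least 20% of its cells.

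UMIs were summed per class, or cluster, and group (at least 20 cells) and given as CPM with exact Poisson intervals. Log2 ratios have exact conditional binomial intervals, shares Clopper-Pearson ones (95%), and a count of 0 allows up to 3 counts. A gene was tested with at least 10 UMIs over both groups. Intervals treat UMIs as independent and leave out variation between mice. The ratios and intervals were also run on simulated independent counts. These held no variation between mice or cells, so the run says nothing on that variation.

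The members and lists were chosen with earlier results of these data known. Named were all 8 members, list genes with at least 20 UMIs in both libraries and a log2 ratio of at least 1 in size in either, and the 5 genes most like the members. Some genes that met this rule are not reported here. Acss2, Acly and Sc5d were named after their values were seen. Gene positions are from GENCODE M21. The study's methods describe isolation of CD11b+ cells, while both libraries held T and B cells. Alternatives were other hashtag calls, resolutions, cell filters, totals, thinning, means over cells and the addition of progenitors.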

Additional observations from a re-analysis of the deposited data

Results flagged for a closer look

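Fdps in neutrophil-like cells lay on opposite sides of vehicle at the low dose in the 2 libraries, with a log2 ratio of 0.19 (0.04 to 0.34) in the liver-labelled library and -0.30 (-0.48 to -0.11) in the spleen-labelled library. It drew attention because both counting intervals stood clear of 0 in opposite directions. Neither direction held under each alternative: the first ratio was -0.016 (-0.13 to 0.10) with granulocyte progenitor-like cells added, and the second was 0.33 (-1.17 to 2.01) after thinning each cell to 500 UMIs. The difference was not tested, since each group was 1 pool in each library. Within clusters of the spleen-labelled library the low-dose ratio of Fdps was -0.75 (-1.40 to -0.12) in cluster 0 and 0.50 (0.06 to 0.95) in cluster 9, so the 2 clusters also lay on opposite sides.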

How the results depend on the processing

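At the high dose the sum of the 8 genes stayed above vehicle under each alternative run. In the liver-labelled library, main value 1.42, the log2 ratio was 1.54 at resolution 0.4, 1.55 without the 20 most abundant genes in the total, 1.28 with granulocyte progenitor-like cells added, 1.996 as a mean over cells and 2.48 after thinning each cell to 500 UMIs. In the spleen-labelled library, main value 0.80, it was 0.60 with progenitors, 1.38 as a mean over cells and 1.84 after thinning. Alternatives chosen after seeing the data gave 1.08 and 0.63 over clusters with at least 20 cells of both groups, and 1.10 with clusters weighted by vehicle cells in the liver-labelled library. At the low dose the sum, 0.36 and -0.10, was 0.49 at resolution 0.4, 0.20 with progenitors, 0.49 as a mean over cells and 0.62 thinned in the liver-labelled library, and 0.18, 0.14 and 0.63 under the last 3 in the spleen-labelled library.

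Thinning left few UMIs and cut the members above 0 to 2 and 2 at the high dose and to 0 and 0 at the low dose, and the sterol enzymes to 0 and 0 at the high dose and to 1 at the low dose in the liver-labelled library. In the spleen-labelled library the members above 0 at the low dose were 2 with progenitors and 0 over shared clusters, and the sterol enzymes were 3 over shared clusters at the high dose and 1 without the 20 most abundant genes at the low dose. The share of all genes called under the same alternatives is not given beside these counts. A change in them therefore cannot be told from a general loss or gain of calls, and nothing is read from them. Fdps at the low dose turned to -0.016 with progenitors in the liver-labelled library and to 0.33 after thinning in the spleen-labelled library. The cause was not tested.

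Means over cells and vehicle weighting give no interval, hence no counts. No paired analysis was possible because each group was 1 pool per library, and with 1 pool there was no replicate to leave out. Lowly counted genes such as Sqle and Insig1 leave wide intervals.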
